A study of Mus musculus with 12 samples.

Results

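The genes described here encode the mitochondrial respiratory chain and ATP synthase, from both the nuclear and the mitochondrial genome. They were chosen by symbol, as protein-coding genes of the Nduf, Sdh, Uqcr, Cox4 to Cox8 and Atp5 families and the mitochondrially encoded mt-Nd, mt-Co, mt-Cytb and mt-Atp genes, with a mean level of at least 1 CPM. In all, 104 genes qualified, 91 nuclear and 13 mitochondrially encoded, out of 38594 Ensembl genes in the table, of which 19309 are protein-coding. A further 2 genes matched by symbol but lay below the level limit: Cox7b2 at 0.387 CPM and a second identifier of Atp5o at 0.122 CPM. The nuclear genes comprise 36 of complex I, 8 complex I assembly factors (Ndufaf), 4 of complex II, 8 of complex III, 16 of complex IV, 16 of ATP synthase (complex V) and 3 related genes (Cox7a2l, Atp5s, Ndufa4l2). The mitochondrial genome contributes 7 genes to complex I, 1 to complex III, 3 to complex IV and 2 to complex V.

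Polyadenylated RNA was sequenced from dorsal root ganglia (DRG), which house the cell bodies of sensory neurons next to the spinal cord, at lumbar levels L1 to L6. The donors were male C57BL/6J mice of 6 to 12 weeks, with no treatment, transgene or deletion named, and the 4 groups differed only in zeitgeber time (ZT, the hour counted from lights on): ZT2, ZT8, ZT14 and ZT20, with 3 libraries each. The series title names clock genes of nociceptors, excitability and pain, and the comparison made here asks whether respiratory chain transcripts differ with the time of day. Whether the libraries stem from separate animals is not stated in the labels, so the p-values measure only the spread between these libraries. The library numbers follow the order of the times, so anything tied to library number cannot be told apart from time.

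The respiratory chain passes electrons from NADH (complex I) and succinate (complex II) through ubiquinone, complex III and cytochrome c to oxygen at complex IV, and the proton gradient this builds drives ATP synthase. Complex II is made wholly from nuclear genes, whereas complexes I, III, IV and V combine nuclear subunits with mitochondrially encoded core proteins, so both genomes must supply parts of each. The mitochondrial genes are transcribed as long precursors that are cut into messengers, most of which are polyadenylated. Sensory neurons, with very long axons and frequent firing, depend heavily on this ATP supply, and several complex IV subunits exist in a general form and in a form typical of heart and skeletal muscle.

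Promoters of complex IV subunits with a muscle and a general isoform are printed first, because these isoforms differed in level and in their spread between libraries; Cox6a2, the muscle form paired with Cox6a1, is named only. RefSeq promoter windows (build GRCm38.p6, from 250 bases before to 50 after the start site) matched 73 of the 91 nuclear genes. Each sequence below stops 30 bases after the start site, and capitals mark the words searched for on both strands: the 10-base site of the regulator NRF1, with 1 free position, and CCGGAAG, the core site of ETS factors such as GABP, which reads CTTCCGG on the opposite strand. Cox6a1 (general isoform, chr5:115348929-115349208, minus strand) and Cox8a (general isoform, chr19:7217587-7217866, minus strand) hold such words, and a second CCGGAAG of Cox8a lies beyond the printed stretch. Cox7a2 (general isoform, chr9:79759824-79760103, minus strand), Cox7a1 (muscle isoform, chr7:30183921-30184200, plus strand) and Cox8b (muscle isoform, chr7:140900417-140900696, minus strand) hold none.
Cox6a1: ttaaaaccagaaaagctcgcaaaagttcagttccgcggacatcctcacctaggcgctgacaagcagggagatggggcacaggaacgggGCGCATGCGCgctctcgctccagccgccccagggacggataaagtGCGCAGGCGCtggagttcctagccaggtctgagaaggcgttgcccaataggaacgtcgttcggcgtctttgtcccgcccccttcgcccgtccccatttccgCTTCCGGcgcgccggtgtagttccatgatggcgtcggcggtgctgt
Cox8a: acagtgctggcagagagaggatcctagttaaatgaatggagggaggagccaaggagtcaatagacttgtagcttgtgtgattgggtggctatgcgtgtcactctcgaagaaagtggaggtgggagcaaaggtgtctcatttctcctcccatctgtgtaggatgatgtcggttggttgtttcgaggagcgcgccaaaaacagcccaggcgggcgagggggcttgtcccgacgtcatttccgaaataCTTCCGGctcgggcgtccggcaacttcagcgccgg
Cox7a2: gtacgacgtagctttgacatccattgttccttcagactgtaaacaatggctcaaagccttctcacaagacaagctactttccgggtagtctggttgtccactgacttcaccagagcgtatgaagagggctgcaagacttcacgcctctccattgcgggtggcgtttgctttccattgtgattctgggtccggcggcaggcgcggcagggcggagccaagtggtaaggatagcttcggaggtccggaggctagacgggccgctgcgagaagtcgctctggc
Cox7a1: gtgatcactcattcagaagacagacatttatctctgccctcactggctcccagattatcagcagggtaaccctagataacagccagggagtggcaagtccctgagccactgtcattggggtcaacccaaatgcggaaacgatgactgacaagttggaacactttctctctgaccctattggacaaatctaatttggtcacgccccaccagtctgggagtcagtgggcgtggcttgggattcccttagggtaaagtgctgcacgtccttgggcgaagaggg
Cox8b: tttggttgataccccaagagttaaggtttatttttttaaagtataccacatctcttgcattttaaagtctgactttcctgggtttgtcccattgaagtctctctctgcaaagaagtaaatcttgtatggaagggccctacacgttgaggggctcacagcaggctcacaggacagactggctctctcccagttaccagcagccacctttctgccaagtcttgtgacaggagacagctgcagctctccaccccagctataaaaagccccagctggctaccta

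Across the 73 matched windows, the NRF1 site stood in 18 (24.66%), against 4.603% of all 32851 promoter windows in the RefSeq table. Its palindromic form, a subset of the former, stood in 7 (9.589%) against 0.9711%. CCGGAAG was found in 17 windows (23.29%) against 8.858%, and AAGATGGCG, a site of the regulator YY1, in 7 (9.589%) against 1.403%; CCGGAAG and AAGATGGCG can overlap in the letters AAG. At least 1 of these words stood in 36 of 73 windows (49.32%), against 13.55% of all windows. By complex, 15 of 32 matched complex I genes held at least 1 word, 4 of 7 assembly factors, 3 of 3 complex II genes, 3 of 5 complex III genes, 3 of 12 complex IV genes and 8 of 13 complex V genes. Each member was given the 1 window nearest to its annotated gene start, whereas the share over all windows counts every window, whatever the level of its gene. Of the 73 start sites, 61 lay within 100 bases of the annotated start, and the farthest, of Atp5d, lay 3643 bases away. These are matches of letters and not measured binding.

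Library quality was even, but the level of skeletal muscle markers differed between the libraries of each time. Estimated counts summed to between 89.8 and 125.0 in units of 1000000 per library, the lowest Pearson r between any pair of libraries, across genes on the log2 CPM scale, was 0.993, and all 14 neuronal markers were present in every library. A muscle score, the mean log2(CPM + 1) of 25 muscle markers that are not respiratory chain genes, was highest in ZT2 replicate 2 (3.67), ZT8 replicate 3 (3.55), ZT14 replicate 1 (3.91) and ZT20 replicate 1 (4.31), and lowest in ZT20 replicate 2 (1.75). Summed muscle markers ranged from 275 to 694 CPM at ZT2, 297 to 719 at ZT8, 410 to 818 at ZT14 and 227 to 1487 at ZT20, and no marker was at 0 in any library. The list includes Pvalb, which proprioceptive neurons of the ganglion also express and which stood at 152 to 244 CPM; without it the sums ran from 123 to 503 CPM at ZT2, 132 to 505 at ZT8, 245 to 617 at ZT14 and 62.5 to 1243 at ZT20. Normalization factors were 0.970 to 0.979 in ZT8 replicate 3, ZT14 replicate 1 and ZT20 replicate 1 and 0.997 to 1.017 in the other 9 libraries. In the same fit that is used below, 8 of 17 clock genes were called for a 24-h rhythm. Because the ganglia were measured whole, fewer cells of a type and less RNA per cell cannot be told apart.

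Mitochondrially encoded transcripts stood far above nuclear ones. Levels are given as CPM, the estimated count scaled by the library size over the genes tested times the normalization factor given above. Only the limit of 1 CPM used library totals without that factor. The deposited values follow coverage, so they are already per length and levels of different genes can be set side by side. The median over the 13 mitochondrial genes was 5832 CPM, and the median over the 91 nuclear genes was 182 CPM. Within a library the 13 mitochondrial genes summed to 4.75 ± 0.15 times the 91 nuclear genes (SD, n = 12). The oligo(dT) step selects polyadenylated RNA, and 11 nuclear pseudogenes of mitochondrial origin took another 5.08% to 5.64% of each library, so the ratio of the genomes depends on how such reads were assigned.

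**Figure D1:**
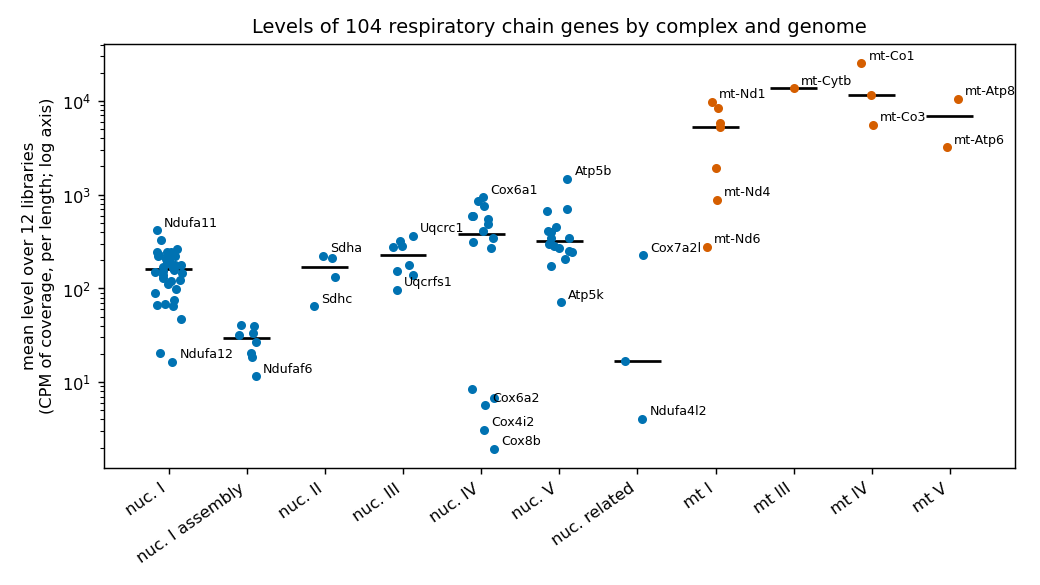
Mean level of each of the 104 genes over 12 libraries (CPM of coverage, per length, log axis), by complex and genome (nuc., nuclear; mt, mitochondrially encoded); each point is 1 gene and bars are medians. The mitochondrially encoded genes reach 25253 CPM (mt-Co1), and the lowest nuclear points of complex IV are tissue-restricted isoforms such as Cox8b at 1.95 CPM.

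Among nuclear genes the order by median level was complex IV (378 CPM), V (322 CPM), III (227 CPM), II (171 CPM), I (161 CPM) and the complex I assembly factors (29.4 CPM). In complex I the accessory subunits Ndufa11 (418 CPM), Ndufb8 (325 CPM) and Ndufc2 (265 CPM) were the most abundant, and Ndufa12 (16.5 CPM), another accessory subunit, the least. Complex II held Sdha (223 CPM), the flavoprotein that oxidises succinate, Sdhb (209 CPM), the iron-sulfur subunit, and the membrane anchors Sdhd (132 CPM) and Sdhc (64.5 CPM). In complex III the core protein Uqcrc1 (363 CPM) was highest, followed by Uqcr10 (320 CPM) and the hinge protein Uqcrh (282 CPM), with the Rieske iron-sulfur protein Uqcrfs1 (97.0 CPM) lowest. Complex IV was led by Cox6a1 (940 CPM), Cox8a (858 CPM) and Cox4i1 (750 CPM). ATP synthase was led by the catalytic beta subunit Atp5b (1468 CPM), the alpha subunit Atp5a1 (700 CPM) and Atp5d (676 CPM), the delta subunit of the central stalk, and Atp5k (71.1 CPM) was lowest.

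The isoforms of complex IV subunits differed by 1 to 3 orders of magnitude, with the general form on top each time. Cox6a1 stood 166 times above Cox6a2 (5.66 CPM), Cox7a2 (315 CPM) stood 36.9 times above Cox7a1 (8.55 CPM), and Cox8a stood 440 times above Cox8b (1.95 CPM). Cox4i1 exceeded Cox4i2 (3.11 CPM), the isoform known from lung, 241-fold, and Cox6b1 (586 CPM) exceeded Cox6b2 (6.85 CPM), the isoform known from testis, 85.6-fold. Ndufa4 (587 CPM), a complex IV subunit despite its name, exceeded its relative Ndufa4l2 (4.07 CPM) 144-fold. Cox7b stood at 267 CPM, while its testis relative Cox7b2 was below the limit. The 3 genes that encode the same c subunit of the ATP synthase rotor were expressed side by side, Atp5g1 at 346 CPM, Atp5g3 at 299 CPM and Atp5g2 at 207 CPM.

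The mitochondrial genes also differed among themselves, from 279 to 25253 CPM. The catalytic subunit mt-Co1 of complex IV was highest (25253 CPM), followed by mt-Cytb of complex III (13703 CPM), mt-Co2 (11487 CPM), mt-Atp8 (10530 CPM), mt-Nd1 (9797 CPM) and mt-Nd4l (8412 CPM). The complex I subunits mt-Nd2 (5832 CPM), mt-Nd5 (5283 CPM) and mt-Nd3 (1946 CPM) and the complex IV subunit mt-Co3 (5574 CPM) lay lower, with mt-Atp6 at 3204 CPM and mt-Nd4 at 876 CPM. The lowest was mt-Nd6 (279 CPM), the protein-coding gene of the opposite strand.

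Neighbouring mitochondrial genes on a shared messenger had unequal levels. mt-Nd4l (chrM:9877-10173, plus strand) and mt-Nd4 (chrM:10167-11544, plus strand) overlap by 7 bases and lie on 1 messenger, yet mt-Nd4l stood 10.1 ± 2.6 times above mt-Nd4 (SD, n = 12). mt-Atp8 (chrM:7766-7969, plus strand) and mt-Atp6 (chrM:7927-8607, plus strand) overlap by 43 bases, and mt-Atp8 stood 3.30 ± 0.21 times above mt-Atp6. The split of reads between such partners is uncertain. Their sums were 9288 CPM for mt-Nd4l with mt-Nd4 and 13734 CPM for mt-Atp8 with mt-Atp6, and since levels are per length and the partners differ in length, the sums depend on the split too. mt-Nd6 (chrM:13552-14070, minus strand) overlaps mt-Nd5 by 14 bases on the opposite strand, and the sources used here do not state whether strand was used in counting.

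The summed level of nuclear respiratory chain transcripts varied little over the day. At ZT2 the 3 libraries gave 21155, 21808 and 21074 CPM. At ZT8 they gave 20934, 21302 and 22303 CPM, at ZT14 22837, 20768 and 20792 CPM, and at ZT20 22436, 21451 and 21276 CPM. The means were 21346 ± 402, 21513 ± 708, 21466 ± 1187 and 21721 ± 626 CPM (SD, n = 3), and the ranges of all 4 times overlapped.

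The mitochondrially encoded sum overlapped between all pairs of times but ZT2 and ZT20. It was 100281, 98156 and 96109 CPM at ZT2, 99084, 102948 and 110638 CPM at ZT8, 107011, 100968 and 95603 CPM at ZT14, and 112549, 100957 and 101809 CPM at ZT20. The 3 ZT20 libraries lay above the 3 ZT2 libraries. Means were 98182 ± 2086, 104223 ± 5882, 101194 ± 5707 and 105105 ± 6461 CPM (SD, n = 3). The highest library at ZT8, ZT14 and ZT20 was the 1 with the highest muscle score at that time, for both genomes.

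**Figure D2:**
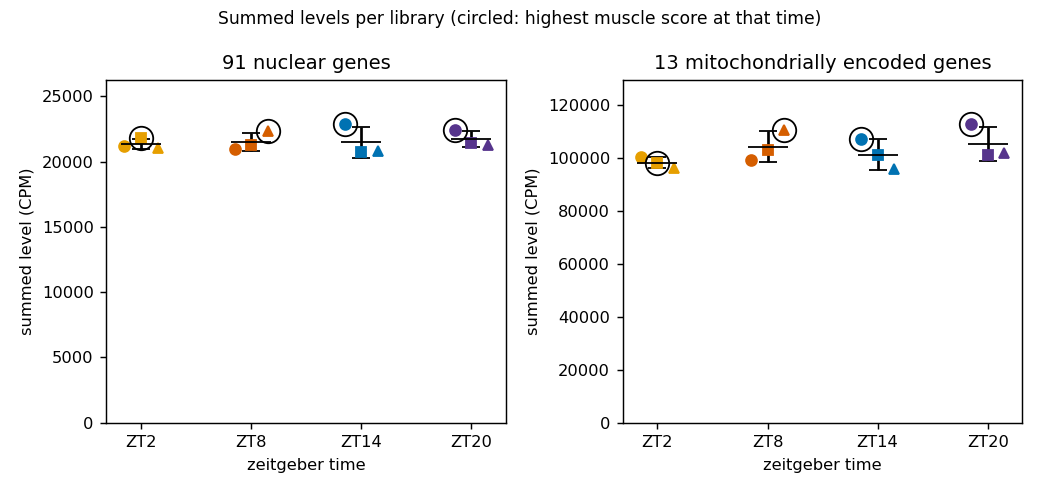
Summed level per library (CPM) of the 91 nuclear and the 13 mitochondrially encoded genes by zeitgeber time; circle, square and triangle are replicates 1, 2 and 3, horizontal bars the mean and error bars the SD (n = 3), and open rings mark the library of highest muscle score at each time. Nuclear sums lie between 20768 and 22837 CPM and mitochondrial sums between 95603 and 112549 CPM.

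The balance of the genomes was close to constant. The mitochondrial sum was 4.60 ± 0.12 times the nuclear sum at ZT2, 4.84 ± 0.11 times at ZT8, 4.72 ± 0.13 times at ZT14 and 4.84 ± 0.16 times at ZT20 (SD, n = 3). On the log2 scale the nuclear to mitochondrial ratio was -2.20, -2.28, -2.24 and -2.27, with SDs from 0.034 to 0.048. By complex, nuclear complex I summed to 5803 ± 139, 5904 ± 246, 5820 ± 370 and 6002 ± 167 CPM at ZT2, ZT8, ZT14 and ZT20. Complex IV summed to 6076 ± 116, 6089 ± 284, 6120 ± 402 and 6213 ± 163 CPM, and complex V to 6585 ± 134, 6570 ± 135, 6644 ± 307 and 6594 ± 197 CPM. For no complex did the libraries of 1 time all stand above, or all below, those of the other 3 times.

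By edgeR, no respiratory chain gene was called as different between times; DESeq2 called 3 genes in all, given below. With edgeR's quasi-likelihood test and Benjamini-Hochberg adjustment over 25809 genes at a threshold of 0.05, 0 of 104 were called for any difference between the 4 times, where 0.0504% of all genes were called. At an unadjusted p under 0.05 there were 7 of 104 (6.73%), against 6.19% of all genes; these were mt-Nd4, mt-Nd4l, Ndufc1, Ndufv2, Atp5e, Atp5h and Atp5s. For a 24-h rhythm 0 of 104 were called, against 0.0659% of all genes, and 3 (Ndufv2, Cox7a2 and Atp5e) had an unadjusted p under 0.05, or 2.88% against 5.20%. limma-trend called 0 in both tests, with 6 and 3 genes at an unadjusted p under 0.05. DESeq2 called 1 of the 104 genes (Ndufc1) for any difference, where it called 292 of the 25809 genes and edgeR called 13. For a 24-h rhythm DESeq2 called 0 of 104. In these tests 13 and 6 of the 104 had an unadjusted p under 0.05 with DESeq2.

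The intervals around the fold changes were narrow. For ZT14 against ZT2, the opposite times 12 h apart, 0 of 104 were called against 0.0465% of all genes, and 98 of 104 had a 95% interval wholly within ±0.5 on the log2 scale, against 51.0% of all genes tested. For ZT20 against ZT8, 0 were called against 0.0232%, and 94 of 104 had such an interval, against 50.9%. Of the 25809 genes tested, 1755 had a mean of 100 CPM or more, and the share among genes as abundant as these was not computed. The median half-width of the interval was 0.126, and 90 genes stayed within ±0.5 in all 6 contrasts between times. The exceptions in every contrast were Cox6a2, Cox7a1, Cox8b, Ndufs6 and mt-Nd6, for which these libraries could not exclude a difference of that size.

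**Figure D3:**
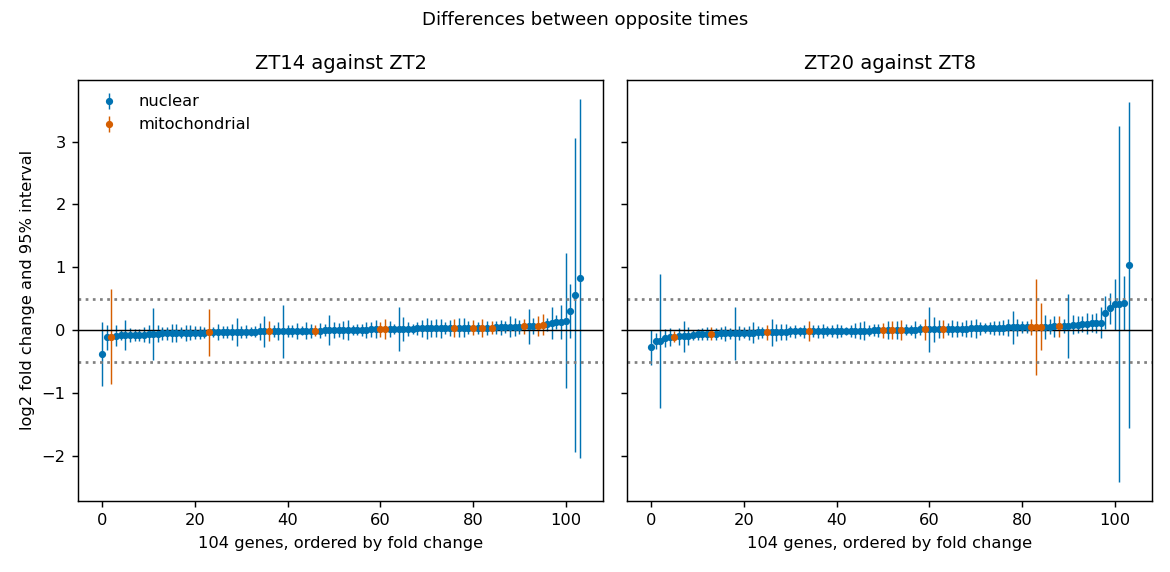
Log2 fold changes with 95% intervals of the 104 genes for ZT14 against ZT2 and ZT20 against ZT8, each ordered by fold change (edgeR fit over 12 libraries; blue, nuclear; orange, mitochondrially encoded; dotted lines at ±0.5). Of the 104 intervals, 98 and 94 lie within the dotted lines, and the longest belong to Cox6a2 and Cox8b.

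Both genomes had medians near 0 in each contrast. Nuclear genes had a median log2 fold change of 0.005 for ZT14 against ZT2 (47 of 91 above 0) and 0.003 for ZT20 against ZT8 (47 of 91), beside a median over all genes of -0.00003 and 0.0016. The 13 mitochondrial genes had medians of 0.039 (9 of 13 above 0) and 0.007 (9 of 13). For ZT8 against ZT2 the medians were 0.009 (52 of 91 above 0) and 0.055 (11 of 13), and for ZT2 against ZT20 they were -0.018 (38 of 91) and -0.062 (2 of 13). For ZT14 against ZT8 they were -0.002 (42 of 91) and -0.036 (3 of 13), and for ZT20 against ZT14 0.023 (59 of 91) and 0.037 (8 of 13). These contrasts share libraries, and the mitochondrial genes share precursors, so the counts are not independent.

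In the 4 contrasts of neighbouring times edgeR also called 0 of 104 genes. The share of all genes called was 0.0194% for ZT8 against ZT2, 0.00% for ZT14 against ZT8, 0.0426% for ZT20 against ZT14 and 0.00387% for ZT2 against ZT20. At an unadjusted p under 0.05 there were 9, 10, 8 and 10 members, against 5.78%, 6.30%, 6.28% and 7.05% of all genes; for the opposite times there were 1 (Ndufs8, ZT14 against ZT2) and 6 (ZT20 against ZT8), against 5.19% and 5.28%. limma-trend called 0 in all 6 contrasts, and DESeq2 called 1, Ndufc1 for ZT14 against ZT8. In that contrast DESeq2 called 103 of all genes.

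Of the 9 tests, the one with the most unadjusted p under 0.05 was a 12-h alternation, with ZT2 and ZT14 on one side and ZT8 and ZT20 on the other. Here 17 of 104 genes had an unadjusted p under 0.05 (16.3%), against 7.44% of all genes, but edgeR called 0 of 104 after adjustment and 0.00% of all genes. limma-trend called 0 with 16 at an unadjusted p under 0.05, and DESeq2 called 3 (mt-Nd4l, Ndufc1 and Atp5h) with 17. Over all genes DESeq2 called 124 for the alternation. Of the 17, 4 were higher at ZT2 and ZT14, against 3.66% of all genes, and 13 lower, against 3.78%. Among nuclear genes 3 were higher and 9 lower, and among mitochondrial genes 1 was higher (mt-Nd4) and 4 lower (mt-Nd1, mt-Nd4l, mt-Co1 and mt-Atp8). With the muscle-rich library of each time left out, 12 of these 17 kept an unadjusted p under 0.05, and without ZT20 replicate 1, 8 did. All 7 erythroid markers had an unadjusted p under 0.05 for the alternation, but not for it alone. Such a p was held by 7 for any difference and 6 for the 24-h rhythm. By contrast it was 7 for ZT20 against ZT14, 7 for ZT2 against ZT20, 6 for ZT20 against ZT8 and for ZT14 against ZT8, 1 for ZT8 against ZT2 and 0 for ZT14 against ZT2. The sum of these markers ran from 1665 to 3993 CPM at ZT2, 2215 to 2407 at ZT8, 3691 to 4040 at ZT14 and 781 to 1232 at ZT20, with none at 0. Their part in the result was not tested.

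With the library of highest muscle score at each time left out (8 libraries), edgeR again called 0 of 104 in each of the 9 tests, but more genes had an unadjusted p under 0.05. There were 17 for any difference, against 9.63% of all genes, 10 for the 24-h rhythm (8.56%) and 21 for the alternation (9.63%). For the contrasts there were 4 for ZT14 against ZT2 (5.66%), 17 for ZT20 against ZT8 (10.2%), 13 for ZT8 against ZT2 (8.38%), 15 for ZT14 against ZT8 (8.92%), 24 for ZT20 against ZT14 (9.21%) and 18 for ZT2 against ZT20 (7.38%). Of the 24 for ZT20 against ZT14, 22 were higher at ZT20, against 4.73% of all genes, and 2 lower, against 4.49%. With 2 libraries a time, this fit has fewer degrees of freedom, and the cause of the higher counts was not tested.

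Ndufc1 is an accessory subunit of the membrane arm of complex I (chr3:51404677-51408988, minus strand, GRCm38). It had the lowest edgeR p of all 104 genes for any difference and for the 12-h alternation, but not for the 24-h rhythm. Its level was 45.2, 45.5 and 46.2 CPM at ZT2, 51.5, 48.6 and 52.0 at ZT8, 45.0, 43.4 and 42.2 at ZT14, and 51.0, 48.5 and 46.9 at ZT20. All 6 libraries of ZT8 and ZT20 lay above all 6 of ZT2 and ZT14. The mean of ZT2 and ZT14 was lower by 0.16 on the log2 scale (edgeR adjusted p = 0.295; DESeq2 adjusted p = 0.00121), and the test of any difference gave an adjusted p of 0.400 with edgeR and 0.00124 with DESeq2. The call thus depends on the tool.

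mt-Nd4l and mt-Nd4 had opposite patterns. mt-Nd4l was 8000, 7894 and 7939 CPM at ZT2, 8426, 8686 and 9357 at ZT8, 8238, 8114 and 7762 at ZT14, and 9531, 8465 and 8532 at ZT20, so ZT8 and ZT20 lay above ZT2 and ZT14 without overlap. mt-Nd4 was 1141, 974 and 943 CPM at ZT2, 563, 764 and 864 at ZT8, 1095, 881 and 1014 at ZT14, and 830, 599 and 849 at ZT20, so ZT8 and ZT20 lay below without overlap. The log2 differences of ZT2 and ZT14 against ZT8 and ZT20 were -0.14 and 0.44, with an edgeR adjusted p of 0.461 for each. Their sum was 8964 ± 154, 9553 ± 623, 9035 ± 280 and 9602 ± 676 CPM at the 4 times (SD, n = 3). Since these genes overlap on 1 messenger, a shift of reads from one to the other cannot be told apart from a change in either.

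Among the other genes of this pattern, Atp5h, a peripheral stalk subunit of ATP synthase, was 387, 396 and 392 CPM at ZT2, 415, 408 and 434 at ZT8, 384, 377 and 375 at ZT14, and 444, 404 and 397 at ZT20. ZT8 and ZT20 again lay above ZT2 and ZT14 without overlap (log2 difference -0.12, edgeR adjusted p = 0.461, DESeq2 adjusted p = 0.0351). The hinge protein Uqcrh differed by -0.10, mt-Nd1 by -0.12, mt-Atp8 by -0.10 and mt-Co1 by -0.09 on the log2 scale. Cox5a, a subunit of complex IV, went the other way by 0.14. None of these was called by edgeR.

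**Figure D4:**
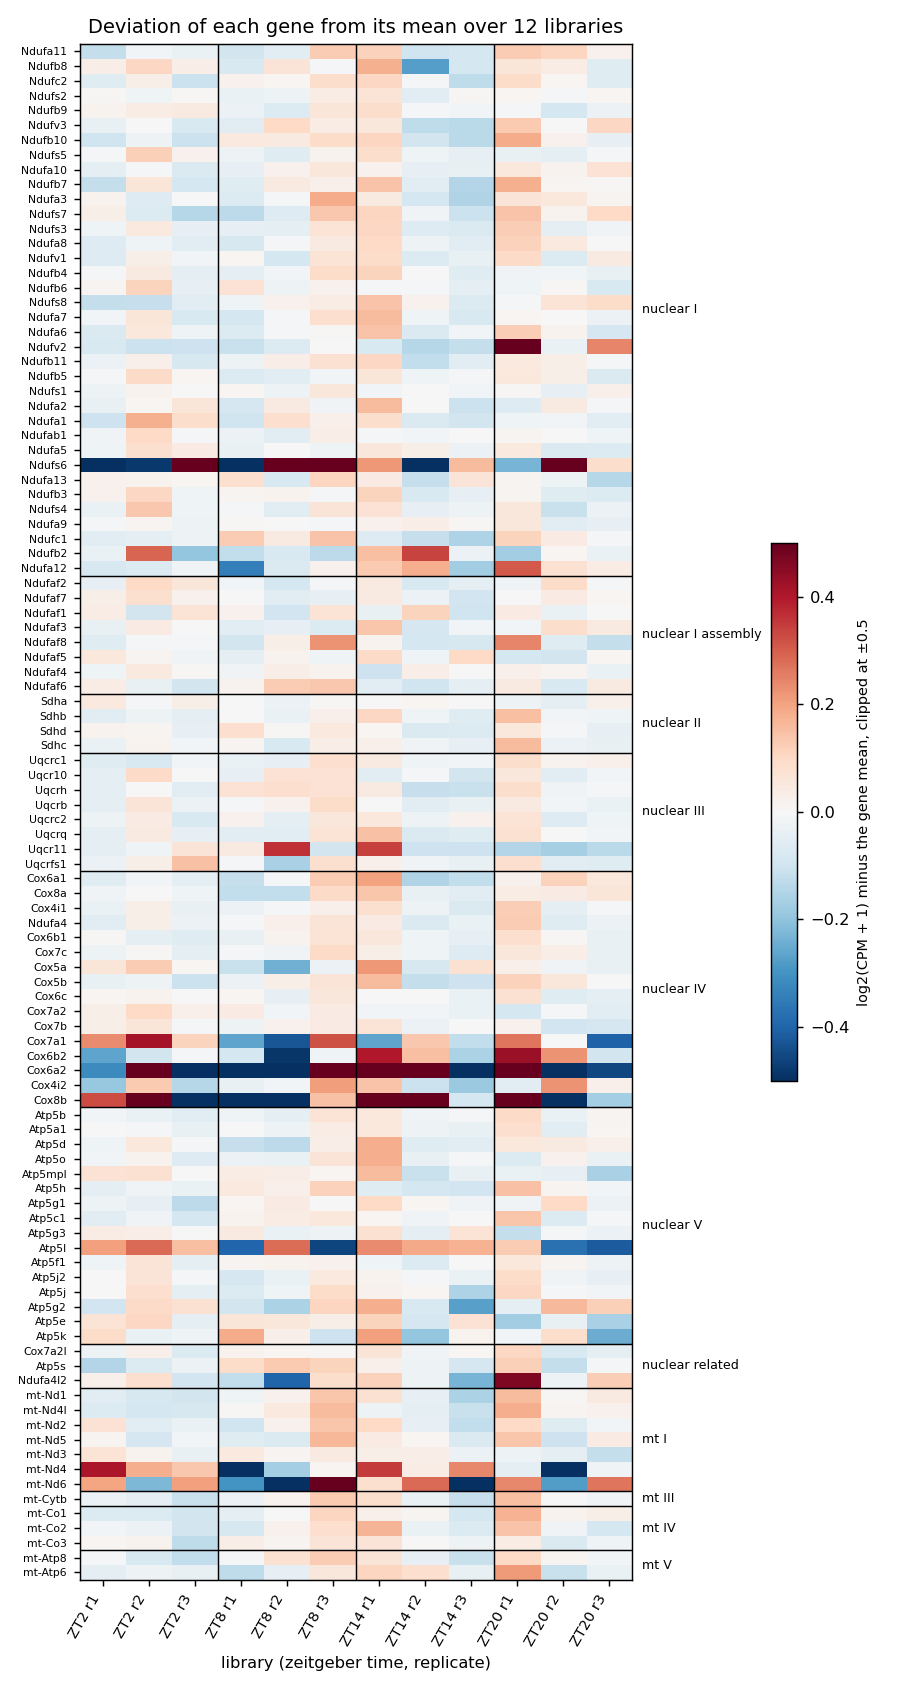
Deviation of each of the 104 genes (rows, grouped by complex and genome and ordered by level) from its own mean over the 12 libraries (columns), as log2(CPM + 1), clipped at ±0.5. Pale rows are genes within a few percent of their mean; columns ZT14 r1 and ZT20 r1 are red over most rows, and Cox6a2, Cox8b and Ndufs6 vary most.

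Most respiratory chain genes varied little from library to library. The median SD between libraries of the same time was 0.071 on the log2(CPM + 1) scale, against 0.10 for all genes tested and 0.066 for the 1755 genes at a mean of 100 CPM or more. The fitted 24-h amplitude had a median of 0.029 log2, against 0.096 for all genes and 0.032 for the genes at 100 CPM or more. Spread and amplitude were thus close to those of abundant genes in general. Sdha spanned only 1.07-fold between its lowest and highest library, as did Ndufs1, the largest iron-sulfur subunit of complex I.

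The 5 widest spreads were those of Cox6a2 (SD 1.31 log2), Cox8b (0.74), Ndufs6 (0.62), mt-Nd6 (0.45) and Cox7a1 (0.29). Ndufs6, an accessory subunit of complex I, was 39.8, 59.4 and 121.7 CPM at ZT2, 56.2, 118.7 and 147.3 at ZT8, 97.2, 55.4 and 93.1 at ZT14, and 70.8, 126.2 and 88.8 at ZT20, so each time held a wide range. Its exons overlap those of Mrpl36 on the opposite strand. Atp5l, the g subunit of ATP synthase, fell into separate ranges: 200.8 to 213.6 CPM in 4 libraries (ZT8 replicates 1 and 3, ZT20 replicates 2 and 3) and 302.4 to 337.2 CPM in the other 8. Summed with its 7 near-identical copies, Atp5l still ranged from 239 to 384 CPM.

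Ndufv2, an iron-sulfur subunit in the NADH-binding arm of complex I, owed its low p to ZT20. It was 223.7 CPM in ZT20 replicate 1 and 175.9 CPM in replicate 3, but 144.8 CPM in replicate 2, and it lay between 134.5 and 148.2 CPM in the 9 libraries of the other times. The log2 fold change for ZT20 against ZT8 was 0.35, with a 95% interval from 0.10 to 0.60 and an edgeR adjusted p of 0.852. ZT20 therefore overlapped the other times through replicate 2.

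Of the 3 muscle isoforms, Cox6a2 and Cox8b were higher in the libraries of higher muscle score. Cox6a2, the heart and skeletal muscle form of subunit VIa, was 2.99, 7.14 and 1.66 CPM at ZT2, 1.35, 1.64 and 11.99 at ZT8, 10.33, 8.38 and 2.24 at ZT14, and 17.12, 0.46 and 2.63 at ZT20. It was highest at each time in the library of highest muscle score. Its log2(CPM + 1) correlated with the muscle score over 12 libraries with a Pearson r of 0.914 (permutation p = 0.00012, adjusted p = 0.0018 over 15 relations) and a Spearman rho of 0.888 (permutation p = 0.0004, adjusted p = 0.0030). The r was 0.838 without the 2 libraries of extreme score, ZT20 replicates 1 and 2, and 0.918 within times.

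Cox8b behaved alike. It was 2.27, 3.15 and 0.77 CPM at ZT2, 0.73, 0 and 1.89 at ZT8, 4.02, 3.63 and 1.46 at ZT14, and 3.84, 0.30 and 1.32 at ZT20. Its r with the muscle score was 0.871 (permutation p = 0.00033, adjusted p = 0.0025) and its rho 0.895 (permutation p = 0.00024, adjusted p = 0.0030), with an r of 0.837 without the same 2 libraries and 0.928 within times. Cox7a1, the third muscle form, was 10.05, 11.50 and 9.13 CPM at ZT2, 6.81, 5.96 and 10.68 at ZT8, 6.80, 9.28 and 7.61 at ZT14, and 10.27, 8.38 and 6.08 at ZT20. Its relation did not pass the correction (r = 0.459, permutation p = 0.134, adjusted p = 0.288; rho = 0.517, permutation p = 0.0898, adjusted p = 0.225; r = 0.484 without the same 2 libraries and 0.529 within times).

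The general isoforms of these subunits showed no such relation past the correction; the difference between the isoforms was not tested. Cox6a1 had an r of 0.168 with the muscle score (adjusted permutation p = 0.893) and a rho of 0.161 (0.925). Cox7a2 had an r of -0.048 (0.975) and a rho of -0.056 (0.967), and Cox8a an r of 0.421 (0.320) and a rho of 0.392 (0.387). Without the 2 extreme libraries the r was higher for all 3, at 0.467 for Cox6a1, 0.336 for Cox7a2 and 0.642 for Cox8a, and within times it was 0.260, -0.105 and 0.465. Cox4i1 did pass with an r of 0.772 (permutation p = 0.00245, adjusted p = 0.0122) and a rho of 0.727 (permutation p = 0.00914, adjusted p = 0.0457), although its whole range was 713 to 817 CPM. Its r was 0.641 without the 2 extreme libraries and 0.860 within times. Ndufa4 and Ndufa4l2 each had an r of 0.670 (adjusted permutation p = 0.0493), and their rho of 0.587 and 0.650 did not pass (adjusted permutation p = 0.148 and 0.0946). Without the 2 extreme libraries their r was 0.384 and 0.634, and within times 0.837 and 0.893. The lower r of Ndufa4 without those 2 libraries was not tested.

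**Figure D5:**
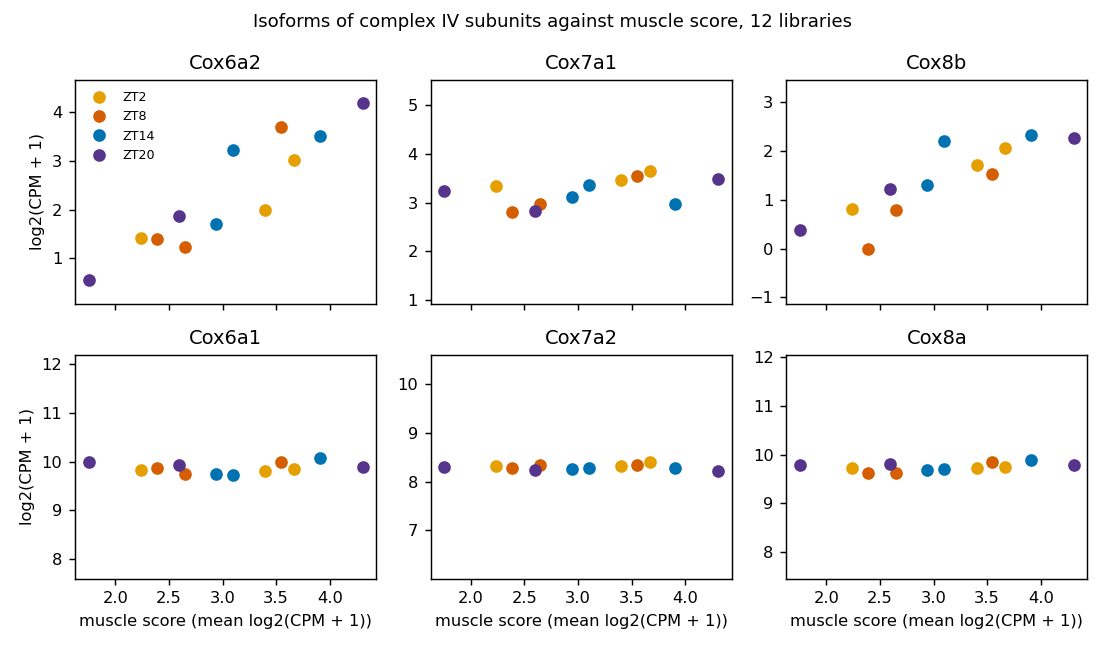
Level of muscle isoforms (top row) and general isoforms (bottom row) of 3 complex IV subunits, as log2(CPM + 1), against the muscle score of each of 12 libraries, coloured by time; all panels span the same log2 range. Cox6a2 (r = 0.914) and Cox8b (r = 0.871) are higher at higher scores; the relations of Cox7a1 (r = 0.459) and of the 3 general isoforms did not pass the correction.

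Across the respiratory chain, most genes were highest in a library of high muscle score. The 4 libraries of highest muscle score, 1 per time, held the highest value of 92 of the 104 genes (88.5%), 81 of 91 nuclear and 11 of 13 mitochondrial. The share was 42.2% over all genes tested and 60.5% over the genes at a mean of 100 CPM or more. As given above, 3 of these 4 libraries also had the lowest normalization factors, and a lower factor raises every CPM value of a library. The median Pearson r with the muscle score was 0.397 over nuclear genes (82 of 91 above 0) and 0.543 over mitochondrial genes (13 of 13), against 0.018 over all genes tested (51.9% above 0). The nuclear sum had an r of 0.654 and the mitochondrial sum 0.593 over 12 libraries, with 0.722 and 0.835 within times and 0.694 and 0.480 without the 2 extreme libraries. These are descriptions over genes that share libraries, and whether muscle RNA raised these levels was not tested.

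Genes that act on or beside the respiratory chain were also not called by edgeR. Of 44 measured genes for mitochondrial biogenesis and mitochondrial DNA expression, 0 were called for any difference or a 24-h rhythm, and 2 (Ppard and Mterf2) had an unadjusted p under 0.05 for any difference. The coactivator Ppargc1a was 9.36 ± 0.46, 9.45 ± 0.56, 8.70 ± 0.19 and 8.69 ± 0.29 CPM at ZT2, ZT8, ZT14 and ZT20 (SD, n = 3). Nrf1, whose site is marked in the promoters above, was 10.7 ± 0.6, 10.6 ± 0.9, 11.1 ± 0.4 and 11.5 ± 0.1 CPM. Tfam, which packages mitochondrial DNA, was 11.5 ± 0.3, 11.0 ± 0.6, 10.7 ± 0.5 and 11.0 ± 0.1 CPM. Of 18 genes for cytochrome c, coenzyme Q and electron transfer, 46 assembly factors outside the symbol rule and 18 genes of the tricarboxylic acid cycle, 0 were called in either test. At an unadjusted p under 0.05 for any difference there were 0, 3 (Ecsit, Tmem126b and Coa4) and 1 (Pdhb), where 6.19% of all genes had such a p. For the 12-h alternation the counts were 1 of 44, 1 of 18, 8 of 46 and 1 of 18, against 7.44% of all genes.

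Copies and overlaps set a limit on single genes. Near-identical sequence of at least 150 bases was shared with another gene by 28 of the 91 nuclear genes. Adding the copies lowered the spread within times for 20 of these 28. The 13 mitochondrial genes were left out of this search, and their nuclear pseudogenes are given above. Exons of 32 nuclear members overlapped those of another gene. For these genes the level depends on how the authors' counting split the reads.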

How the data were processed

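The submitters' processing notes name HISAT2 2.2.1, StringTie 2.1.5 and build GRCm38.p6; the sources used here do not give their roles, the annotation or how the table was made. The authors deposited 1 table of estimated counts, not whole numbers, with 38942 rows; 348 assembled loci without gene IDs (0.203% to 0.231% of a library) were left out. Within a library the values are coverage times 1 constant: multiplied by length, 1.04% to 1.50% of single-transcript genes come to 1 pair of 150-base reads (300 bases, within 1 base), against 0.054% to 0.176% at 10 bases less. Totals are therefore not reads, which were approximated at 47.9 to 67.1 in units of 1000000. Intervals and tests treat the values as counts, and counting error is not modelled exactly.

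Values were rounded and fitted with edgeR 4.0.16 in R 4.3.3 (filterByExpr, TMM, robust quasi-likelihood, 4 times in 1 model, 12 libraries): 25809 genes tested, 12785 below the filter, all 104 respiratory chain genes tested. Tests were any difference (3 degrees of freedom), a 24-h cosine and sine pair, a 12-h alternation and 6 contrasts. Limma 3.58.1, DESeq2 1.42.0, other normalizations and filters, approximate reads, a replicate block and each library left out were alternatives. The fit was tested on simulated data. Permutation tests were two-sided with 100000 resamples. Near-identical copies of nuclear genes were found with BLAST 2.17.0 at 98% identity. Nuclear pseudogenes of mitochondrial origin were taken at 95% identity over at least 100 bases. Symbols and coordinates came from GENCODE M21, and promoters from RefSeq.

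The genes and lists were chosen with earlier results of these data known. Named are all mitochondrial genes, the 10 lowest p of the any-difference test and the 3 highest and the lowest level of each complex. Isoform pairs and the 5 widest spreads are named too. Atp5l, Ndufs1, Ndufs8 and genes of the other lists were named after their values were seen.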

Additional observations from a re-analysis of the deposited data

How the results depend on the processing

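Of the 9 tests, 21 or 22 alternatives each left 0 of 104 genes called, except DESeq2. DESeq2 called 1 of 104 for any difference, 3 for the 12-h alternation and 1 for ZT14 against ZT8. Over all genes it called 292, 124 and 103 in these tests, and the cause was not tested. Leaving out each library in turn gave 0 calls throughout; for the alternation the genes at an unadjusted p under 0.05 ran from 9 (without ZT20 replicate 1) to 26 (without ZT14 replicate 1), and for any difference from 4 to 16. All medians moved by less than the spread between libraries. The log2 ratio of nuclear to mitochondrial sums was -2.71, -2.77, -2.74 and -2.78 at ZT2, ZT8, ZT14 and ZT20 with approximate reads, and -2.81, -2.88, -2.85 and -2.88 with the nuclear pseudogenes added to the mitochondrial sum, which enlarges that sum by construction.

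With the replicate number as a block, 0 genes were called in each of the 9 tests (15 at an unadjusted p under 0.05 for the alternation, against 17). Deviations of same-numbered libraries correlated with a median of 0.0098 (from -0.169 to 0.249 over 18 pairs). For libraries of other numbers the median was 0.0132 (from -0.248 to 0.327 over 36 pairs). Of 12 libraries, 5 correlated best with their own number. With 3 libraries a time, these values cannot decide whether the numbers pair the libraries.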
